A study of Homo sapiens with 2 samples.

Results

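The feedback genes of ERK signalling DUSP4, DUSP5, DUSP6, DUSP7, SPRY1, SPRY2, SPRY4, SPRED1, SPRED2 and SPRED3 were examined in a genome-wide map of ETV4 binding. Their peaks were chosen by position alone, as every peak whose interval lay within 20 kb of the RefSeq span of 1 of these 10 genes. The rule found 54 of 54389 peaks (0.0993%), and all 10 genes had at least 1. The map came from chromatin immunoprecipitation followed by sequencing (ChIP-seq) in A549, a human lung adenocarcinoma cell line and a model of non-small cell lung cancer (NSCLC). A549-shETV4 cells, in which a lentiviral shRNA depletes ETV4, were transfected again with a plasmid for Flag-tagged ETV4, and the tag was precipitated. The study's methods name a Flag antibody from CST and the labels one from Sigma, and this was not settled here. The series held 1 anti-Flag immunoprecipitate and 1 input library of A549 cells, for which the labels give no antibody. There was no replicate and no immunoprecipitate without Flag-ETV4, so no difference between conditions was tested, and the promoter of the expression plasmid was not given in the sources used here.

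The ERK pathway carries signals from growth factor receptors through RAS and MEK to the kinases ERK1 and ERK2, and it induces its own inhibitors. Dual-specificity phosphatases (DUSPs) of the MAP kinase phosphatase group remove the activating phosphates from MAP kinases, Sprouty proteins (SPRY) interfere with the signal on its way from the receptor, and SPRED proteins bring the RAS-inactivating protein NF1 to the membrane. ETV4 belongs to the PEA3 group of ETS transcription factors, which bind DNA around a GGAA core and which ERK activates, and several of these inhibitor genes are known as PEA3 targets. The repressor Capicua (CIC), which ERK inactivates, binds TGAATGAA-like octamers and is known for targets in the same families.

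Reference sequence at the 5′ ends is shown first, because the peaks there were the feature that all 10 genes had in common. The sequences were taken from RefSeq promoter windows on GRCh38.p14, which reach from 250 bases before to 50 bases after a transcript start. For SPRY2 (minus strand, chr13:80341127-80341376), SPRED1 (plus strand, chr15:38252586-38252835), SPRED2 (minus strand, chr2:65432600-65432849) and DUSP6 (minus strand, chr12:89352502-89352751), the 250 bases before the outermost start are given, 5′ to 3′. For SPRY1 (plus strand, chr4:123398307-123398336) and SPRED3 (plus strand, chr19:38389588-38389617 and chr19:38389719-38389748), 30 bases around a match inside a peak are given. Capitals mark, on either strand, the ETS core CCGGAA, its AGGAAG form (CTTCCT when read from the other strand), the AP-1 site TGANTCA and the CIC octamers. SPRY2 is shown for the ETS core next to its summit, SPRED1 and SPRED2 for AGGAAG matches near theirs, DUSP6 because its summit lay away from the start, SPRY1 and SPRED3 for the CCGGAA and the CIC octamer near a summit, and the second SPRED3 stretch for its AP-1 site.
SPRY2: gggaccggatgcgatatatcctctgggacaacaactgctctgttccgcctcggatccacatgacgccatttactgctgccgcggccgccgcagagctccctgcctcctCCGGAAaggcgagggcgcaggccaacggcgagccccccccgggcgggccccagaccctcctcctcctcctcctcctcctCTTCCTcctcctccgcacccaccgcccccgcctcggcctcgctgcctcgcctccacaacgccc
SPRED1: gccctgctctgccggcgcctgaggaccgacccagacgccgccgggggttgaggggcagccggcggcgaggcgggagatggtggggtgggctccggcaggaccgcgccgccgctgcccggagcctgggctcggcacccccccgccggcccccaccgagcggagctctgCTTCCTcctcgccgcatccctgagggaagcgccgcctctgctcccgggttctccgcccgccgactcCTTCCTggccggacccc
SPRED2: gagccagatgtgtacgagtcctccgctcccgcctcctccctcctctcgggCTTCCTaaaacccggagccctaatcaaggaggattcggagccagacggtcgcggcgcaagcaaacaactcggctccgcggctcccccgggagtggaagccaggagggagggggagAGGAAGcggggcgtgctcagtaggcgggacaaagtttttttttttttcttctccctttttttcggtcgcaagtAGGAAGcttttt
DUSP6: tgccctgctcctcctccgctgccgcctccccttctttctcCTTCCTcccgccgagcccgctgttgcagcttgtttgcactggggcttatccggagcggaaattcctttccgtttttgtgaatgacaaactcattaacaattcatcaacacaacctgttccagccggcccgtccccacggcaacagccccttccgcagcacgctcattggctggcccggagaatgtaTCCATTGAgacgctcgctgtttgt
SPRY1, inner start: tgccctccgcagCCGGAAgggggccgcggg
SPRED3, CIC octamer: cttgatttttgTGAATGAAatgctctctgg
SPRED3, AP-1 site: cccgttgctgggTGACTCAgtgagctttgc

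The summit of the SPRY2 peak lay 9 bp from the CCGGAA printed above, which starts 142 bases before the transcript start. In SPRY1 the CCGGAA before an inner start lay 11 bp from the summit of the second peak at that gene. Among 22012 windows of protein-coding transcripts, 21.09% held CCGGAA on either strand, against 2 of the 13 windows of the members. The longer form CCGGAAGT, which includes CCGGAA, was in 5.315% of all windows and in no window of a member. The AGGAAG form was searched only after the sequences had been seen. It was in 33.48% of all windows and in 9 of 13 windows of the members, and CCGGAA or AGGAAG was in 47.94% and in 9 of 13. The nearest AGGAAG match of a gene lay 21 bp from the summit in SPRED1, 35 bp in SPRED2 and 42 bp in SPRED3. In SPRY2 it lay 88 bp away, in SPRY1 159 bp and in DUSP6 1460 bp. The windows of SPRY4 and DUSP7 held neither CCGGAA nor AGGAAG. These matches describe letters only, and the 13 windows belong to 8 genes, of which SPRY1, SPRED2 and SPRED3 have 2 each and SPRY2 has 3.

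TGANTCA was in 6.156% of all windows and in 2 of 13 windows of the members, those of SPRED2, where it lay 19 bp from the summit of a peak at an inner start, and of SPRED3, where it lay 130 bp from the summit. The GC box GGGCGG was in 56.26% of all windows and in 8 of 13 windows of the members, and the CRE TGACGTCA in 2.249% and in 0 of 13. The CIC octamers searched, also after the sequences had been seen, were TGAATGAA, TGAATGGA, TCAATGAA and TCAATGGA. At least 1 of them was in 3.107% of all windows, and among the members in SPRED3, 2 bp from the summit, and in DUSP6, over 1 kb from the summit. All 13 windows of the members overlapped a peak, and 7 held its summit. The same share over all windows was not counted, and the 3 windows of SPRY2 lie under 1 peak. Peaks were common there, since 61.4% of stranded protein-coding genes had one within 1 kb of the 5′ end. The median GC content of the members' windows was 63%, beside 62.33% for all windows, and their median number of CpG dinucleotides was 19, beside 21. No window was listed for DUSP4 and DUSP5.

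Each peak in the list has a fold enrichment, which is the pileup of fragments at the summit plus 1 over the control level plus 1, a −log10 p-value and a −log10 q-value. The pileup was solved from the fold and the −log10 p, and its exact Poisson 95% interval covers counting error only. Across the 54 peaks the fold enrichment ranged from 3.36 to 144.5, with a median of 13.3 (order-statistic 95% interval 9.46 to 18.1), beside a median of 9.63 over all 54389 peaks. That interval treats the 54 peaks as independent draws, but they were all the peaks of 10 genes in 1 library. It measures no spread between libraries, and it includes 9.63. A fold enrichment of 10 or more was found for 33 of the 54 peaks (61.1%), beside 48.5% of all peaks. Their median pileup was 39.5 fragments, beside 26, and their median width 715.5 bp, beside 519 bp. The median −log10 q was 30.3, beside 19.3, and the median control level 1.93, beside 1.67. The nearest protein-coding gene was the member itself for 50 of the 54 peaks. The exceptions were 1 peak near DUSP7 that was nearer to POC1A and 3 near SPRED3 that lay in PSMD8, FAM98C and RASGRP4. Another listed gene, coding or not, lay over the summit of 14 peaks. The choice of peaks by distance to a member favours that member as the nearest gene. For neither count was the share around other genes computed.

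A peak in such a window was common. Of 19974 protein-coding genes on chromosomes 1 to 22 and X, 86.3% had a peak within 20 kb, against 10 of 10 members, and 72.5% had a peak of fold enrichment 10 or more there, again against 10 of 10. Among the 14158 genes within the members' range of length, from 5151 to 125425 bp, the latter share was 73.6%. At the 5′ end, within 1 kb, 61.4% of 15812 genes with a listed strand had a peak, and all 10 members did. For a peak of fold enrichment 10 or more at the 5′ end, the share was 44.5%, and all 10 members had one. For DUSP4 and DUSP5, whose direction was not in the tables used, both ends of the gene were searched, and only 1 end of each had a peak, which was taken as the 5′ end. The map of summits around the genes shows that each gene had a peak at its 5′ end, while the other peaks were spread unevenly.

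**Figure D1:**
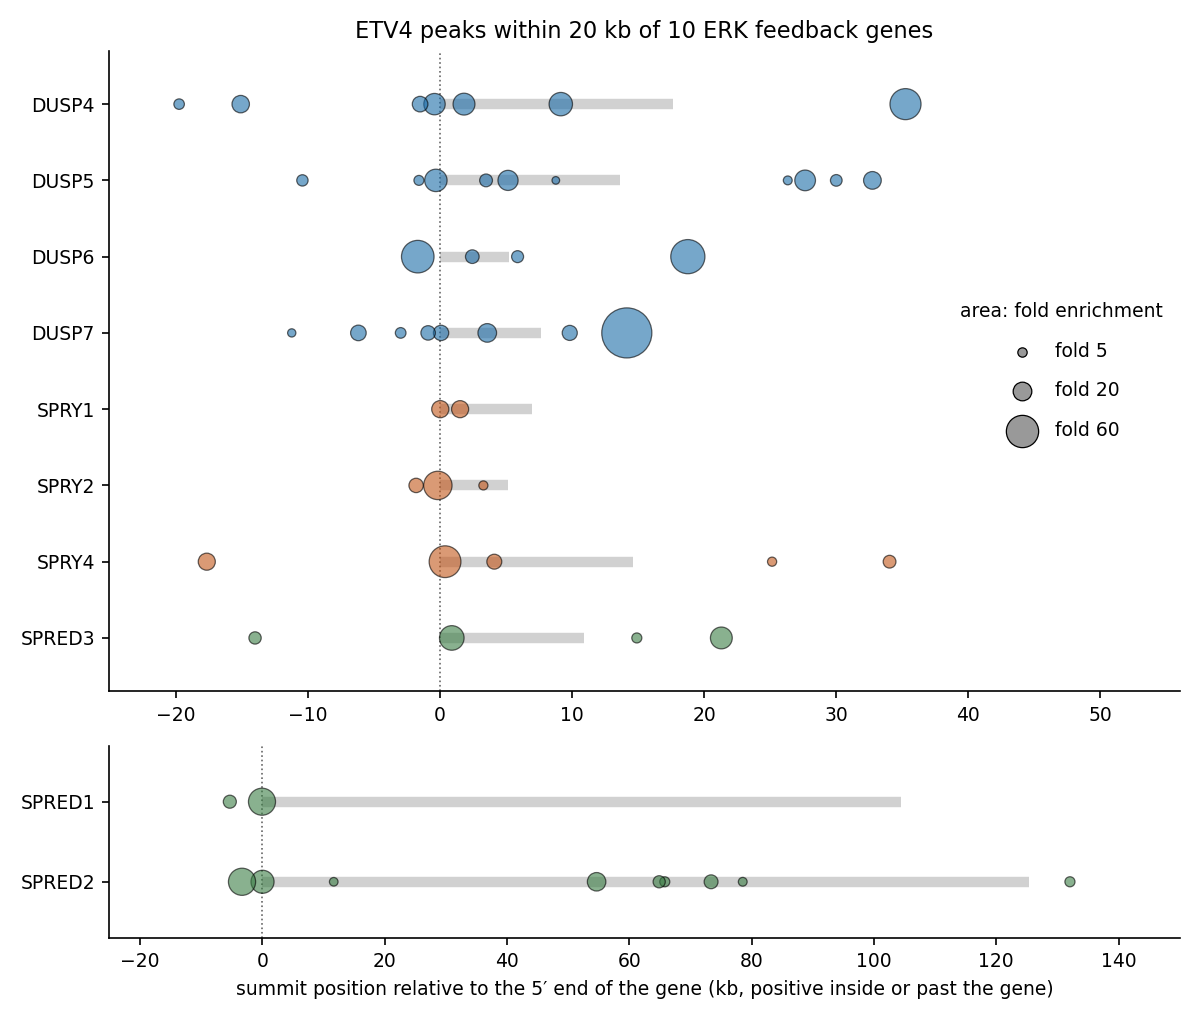
Position of each of the 54 peak summits relative to the 5′ end of its gene, in kb, with the gene span as a grey bar and the fold enrichment as the area of the circle. For DUSP4 and DUSP5 the 5′ end is the gene end that had a peak. SPRED1 and SPRED2 are drawn on a longer axis below, and all 10 genes have a summit within 1.7 kb of the dotted line.

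By pileup at the 5′ end, DUSP6 came first with 287 fragments (95% interval 255 to 322) and DUSP7 last with 30 (20.2 to 42.8). Between them came SPRED3 with 175, SPRY4 with 144, SPRED2 with 123, DUSP5 with 116, SPRED1 with 111, SPRY2 with 105, DUSP4 with 61 and SPRY1 with 52. The intervals of neighbours in this order overlapped in 7 of 9 pairs, and they were apart only between DUSP6 and SPRED3 and between SPRY2 and DUSP4. By fold enrichment the members ranged from 13.5 for DUSP7 to 61.1 for DUSP6, with a median of 32.8. Of the 10 genes, 8 lay above 17.5, the median of the 9716 stranded genes with a 5′ peak, and DUSP7 and SPRY1 lay below it. The control levels at these summits, from 1.28 in SPRY2 to 4.05 in SPRED3, enter the fold, and the order by fold differed from the order by pileup. SPRED3, with the second highest pileup, was the fifth by fold at 34.8.

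**Figure D2:**
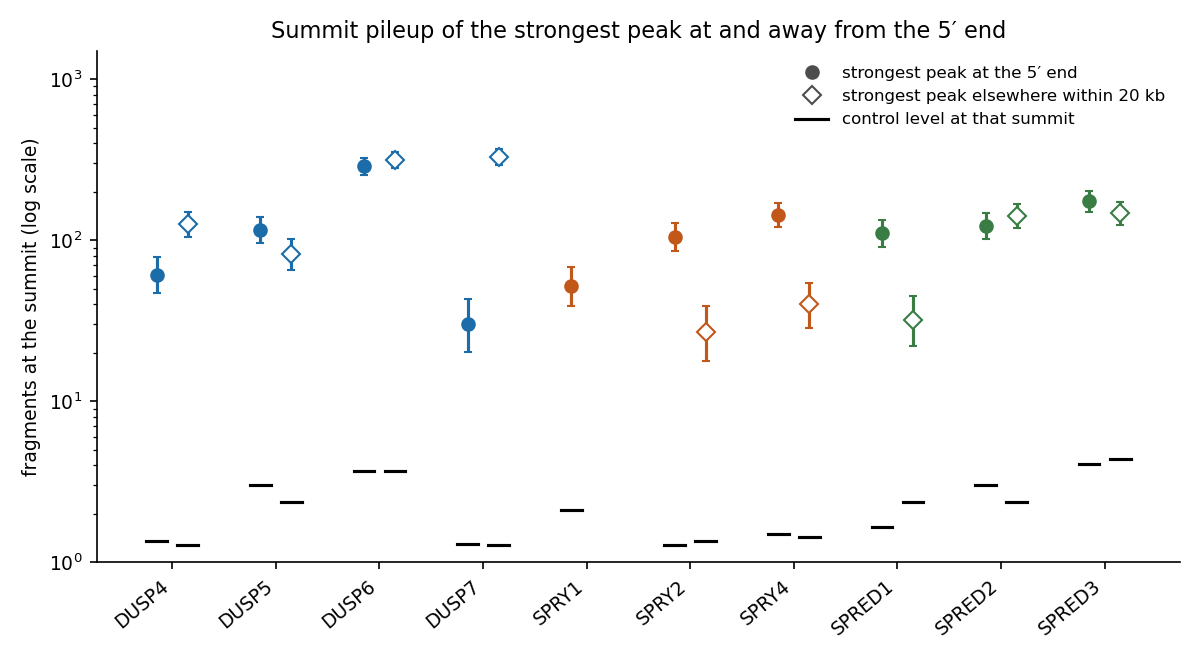
Fragments at the summit of the strongest peak at the 5′ end (filled circles) and elsewhere within 20 kb (open diamonds) of each gene, on a log scale, with exact Poisson 95% intervals. Black bars are the control level at the same summit. With peaks placed by their interval, SPRY1 had no peak away from its 5′ end. In DUSP4 and DUSP7 the diamond lies above the circle with intervals that do not overlap.

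DUSP4, a nuclear phosphatase of ERK, JNK and p38 (chr8:29333064-29350684), had 7 peaks. The peak over its 5′ end was 1780 bp wide, with a fold enrichment of 26.4, a −log10 q of 75.1 and a pileup of 61 fragments (95% interval 46.7 to 78.4). It was only the fourth by fold at this gene. Inside the gene, peaks with fold enrichments of 27.6 and 31.5 had their summits 1832 bp and 9157 bp from the 5′ end. The strongest peak, with a fold enrichment of 55.6 and 126 fragments (105 to 150), had its summit 17625 bp beyond the other end of the gene. The pileup there was higher than at the 5′ end, with intervals that did not overlap. The listed gene LOC124901922 lay over the summit of this strongest peak, and LOC124901924 over the summit of the 5′ peak.

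DUSP5, a nuclear phosphatase specific for ERK (chr10:110497907-110511533), had the most peaks of the members, 10. Its strongest was the one over the 5′ end, 2520 bp wide, with a fold enrichment of 28.98, a −log10 q of 134 and 116 fragments (95.9 to 139). A peak inside the gene, 5163 bp from the 5′ end, had a fold enrichment of 23.4. Past the other end lay a group of 4 peaks, with summits from 12708 to 19115 bp beyond it and fold enrichments of 4.54, 24.7, 7.85 and 18.1 in the order of the chromosome. The last of these was 2741 bp wide. DUSP5 also had the weakest of the 54 peaks, with a fold enrichment of 3.36 and 7 fragments.

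DUSP6, a cytoplasmic ERK phosphatase often used as a readout of ERK activity (chr12:89347235-89352501, minus strand), had only 4 peaks but 2 of the 5 with a fold enrichment over 50. The peak over its 5′ end was the widest of all 54, at 3908 bp, with a fold enrichment of 61.1, a −log10 q of 418 and 287 fragments (255 to 322). Its summit lay 1667 bp upstream of the outermost start. The summit was thus outside the 250 bases printed above, although the interval covered them. The other strong peak (chr12:89333365-89334204) was 840 bp wide, with a fold enrichment of 67.3 and 316 fragments (282 to 353), and its summit lay 13506 bp past the 3′ end. The pileups of both could not be told apart by their intervals. The remaining peaks had fold enrichments of 10.7 inside the gene and 8.29 just past its 3′ end. The readthrough gene POC1B-DUSP6 also covered the 5′ peak and the peak inside the gene.

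DUSP7, a second cytoplasmic ERK phosphatase (chr3:52048919-52056571, minus strand), had 8 peaks and the strongest of all members. This peak (chr3:52041889-52042768) was 880 bp wide and had a fold enrichment of 144.5, a −log10 q of 649 and 329 fragments (294 to 367) over a control level of 1.28, the lowest in the list. Its fold enrichment was at percentile 99.8 of all 54389 peaks. The summit lay 6501 bp past the 3′ end of DUSP7, which was also the nearest protein-coding gene. At its 5′ end DUSP7 had the lowest values of the members, a peak of fold enrichment 13.5 with 30 fragments and a second one upstream of 12.1 with 35. Between these extremes, a peak inside the gene, 3592 bp from the 5′ end, had a fold enrichment of 20.01.

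The Sprouty genes had fewer peaks than the DUSP genes, 10 in all. SPRY1 (chr4:123396795-123403760, plus strand) had 2, and the intervals of both reached within 1 kb of the 5′ end. The first, over the outermost start, was 716 bp wide with a fold enrichment of 17.0 and 52 fragments (38.8 to 68.2). The second, which spans the inner start whose CCGGAA is printed above, was 2254 bp wide with a fold enrichment of 16.8 and 49 fragments (36.3 to 64.8). Its summit lay 1537 bp inside the outermost start, and its nearer edge 881 bp. With peaks placed by their interval, SPRY1 was the only member with no peak away from its 5′ end.

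SPRY2 (chr13:80335976-80341126, minus strand), the Sprouty member best known for acting on the EGF receptor, had 3 peaks. The peak over its 5′ end was 3591 bp wide, with a fold enrichment of 46.4, a −log10 q of 156 and 105 fragments (85.9 to 127) over a control level of 1.28, and its interval covered all 3 windows of its listed starts. The others had fold enrichments of 11.9 upstream and 4.76 inside the gene. SPRY4 (chr5:142310430-142325021, minus strand), which can inhibit signalling from several receptor kinases, had 5 peaks. Its 5′ peak was 2880 bp wide, with a fold enrichment of 58.1, a −log10 q of 224 and 144 fragments (121 to 170), the highest fold at a 5′ end after DUSP6. The next was a peak with a fold enrichment of 16.8, 17634 bp upstream and over the antisense gene SPRY4-AS1, and the peak inside the gene had 12.8.

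The SPRED genes differed from each other in the number of peaks. SPRED1 (chr15:38252836-38357249, plus strand), the gene whose loss causes Legius syndrome, spans 104414 bp and had only 2 peaks. The peak over its 5′ end was 1977 bp wide, with a fold enrichment of 42.2, a −log10 q of 155 and 111 fragments (91.3 to 134), and its summit lay 60 bp upstream of the start. The other, 5319 bp upstream, had a fold enrichment of 9.81. No peak was listed inside the gene beyond the 5′ end or in the 20 kb past its 3′ end.

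SPRED2 (chr2:65307175-65432599, minus strand), the longest of the members at 125425 bp, had 9 peaks. The peak over its 5′ end was 3364 bp wide, with a fold enrichment of 30.7, a −log10 q of 145 and 123 fragments (102 to 147), and its summit lay 26 bp inside the start. A stronger peak (chr2:65435510-65437098), 1589 bp wide, had its summit 3325 bp upstream, with a fold enrichment of 42.5 and 142 fragments (120 to 167). The intervals of both pileups overlapped. Inside the gene lay 6 peaks with fold enrichments from 4.28 to 19.7, of which 1, with 5.81, was at an inner start and next to the TGANTCA match.

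SPRED3 (chr19:38388697-38399587, plus strand) had 4 peaks, and only the one at its 5′ end had SPRED3 as a nearest gene, a place it shared with GGN. This peak was 1604 bp wide, with a fold enrichment of 34.8, a −log10 q of 211 and 175 fragments (150 to 203). Its summit lay 907 bp inside the outermost start and before the start of a second listed transcript, next to the TGAATGAA printed above. The other peaks had fold enrichments of 27.5 in RASGRP4, 8.73 in PSMD8 and 5.81 in FAM98C. The control levels at the peaks of SPRED3, from 4.05 to 7.09, were the highest among the members.

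The strongest 5′ peaks of the members were wide. Their median width was 2248.5 bp, and 9 of 10 exceeded 1079.5 bp, the median over 9716 genes with a 5′ peak. In DUSP5, DUSP6, SPRY2, SPRY4 and SPRED2 the peak was 2 kb or wider, which is 5 of 10 members against 6.87% of the 15812 stranded genes and 11.2% of those with a 5′ peak. Of the 8 members with a listed strand, the like of that background, 4 had such a peak. Wide peaks were more common where the fold was high. Among the 4266 genes with a 5′ fold enrichment of 20 or more, 20.8% had a peak of 2 kb or wider, and of the 8 members past that value 5 did. The 4266 genes all have a listed strand, whereas DUSP4 and DUSP5 among the 8 members do not. Both limits, 2 kb and fold 20, were set with the values in view. SPRY1 is not among the 5 because its wide peak was the weaker of its pair by a fold enrichment of 16.8 against 17.0.

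**Figure D3:**
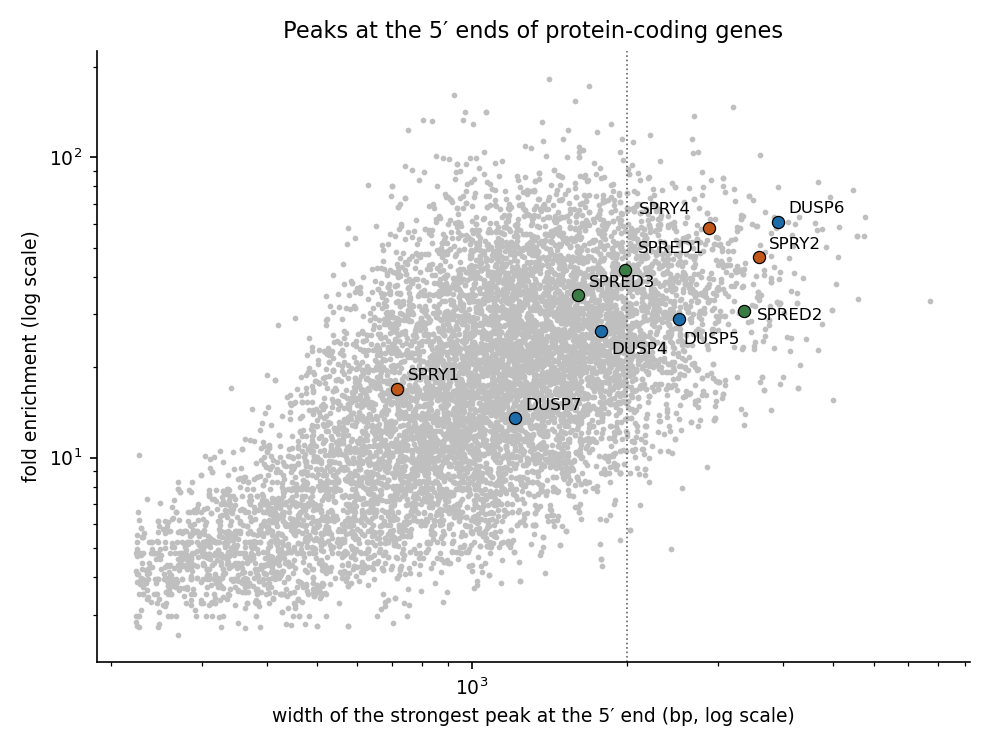
Fold enrichment against width of the strongest peak at the 5′ end, both on log scales, for 9716 protein-coding genes (grey) and the 10 members (blue DUSP, orange SPRY, green SPRED). The dotted line marks 2 kb. DUSP6, SPRY2, SPRED2, SPRY4 and DUSP5 lie to its right, and SPRY1 and DUSP7 have the lowest folds of the members.

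Away from the 5′ end the members had 42 peaks, 15 inside and 27 outside their genes. Their fold enrichment was 10.3 in the median, beside 29.8 for the 12 peaks at a 5′ end, and their width 564 bp, beside 2115.5 bp. A peak of fold enrichment 10 or more away from the 5′ end was found in 8 of 10 members, against 57.3% of stranded genes. Of the 8 members with a listed strand, 6 had such a peak. SPRY1 had none, and SPRED1 had one of 9.81. In 6 of 10 members the strongest peak was the one at the 5′ end, a share that was not counted over all protein-coding genes. The exceptions were DUSP4, DUSP6, DUSP7 and SPRED2. For DUSP4 and DUSP7 the pileups were also apart beyond their intervals, whereas for DUSP6 and SPRED2 they overlapped.

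Peaks were denser around these genes than around protein-coding genes in general. Over all windows, which total 711.607 kb, there were 7.59 peaks per 100 kb, beside 3.03 over the windows of all protein-coding genes. Per gene the median was 8.35, beside 2.90 for all genes and 3.30 for the 14158 genes within the members' range of length. Above both lay 9 of 10 members, and SPRED1, with 1.38 per 100 kb, lay below. That range is wide, with SPRED1 and SPRED2 at its upper end, and does not match the genes by length. The median span was 12259 bp for the members, beside 24170.5 bp for all protein-coding genes. The 4 DUSP genes had 29 peaks, or 14.2 per 100 kb, the 3 Sprouty genes 10, or 6.82, and the 3 SPRED genes 15, or 4.16. In median fold enrichment the families were 14.0, 14.8 and 9.81. Of the 42 peaks away from a 5′ end, 24 were at DUSP genes, 6 at Sprouty genes and 12 at SPRED genes. A fold enrichment of 10 or more was found for 14, 3 and 4 of them. Together these were 21 of 42 (50%), close to the 48.5% of all peaks. The share of the window covered by peaks was 9.24% in the median member, beside 2.13%, and 19.1% at DUSP5.

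The limit of 20 kb left out some strong peaks. The nearest peak beyond it at SPRY2, 25614 bp from the gene, had a fold enrichment of 54.1 with 131 fragments, which is higher than any SPRY2 peak inside the limit. At SPRED3 a peak 25896 bp away had 30.7, at DUSP4 one 22042 bp away had 21.6 and at SPRY4 one 22421 bp away had 19.7. The one at SPRED3 lay on the same side as the peak in PSMD8 and farther out. The nearest genes of peaks beyond the limit are not given here. At SPRED2 a peak 20232 bp away had 4.46. Just inside the limit were peaks of 6.38 at DUSP4 (19442 bp) and 9.39 at SPRY4 (19231 bp).

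For other genes of the pathway the level at the 5′ end depended on the list. Of the 26 genes of 4 further lists, 19 had a listed strand. All 19 had a 5′ peak, and for 16 of them its fold enrichment was 10 or more. Their median was 19.97, beside 38.5 for the 8 members with a listed strand. The other 7, RASA2, FOSL1, IER3, CCND1, MYC, ETV4 and ETV5, had no strand in the tables used, so both gene ends were searched and their values are those of the stronger end, which may be the 3′ end. The other MAP kinase phosphatases DUSP1, DUSP2, DUSP8, DUSP9, DUSP10 and DUSP16 had a median 5′ fold of 38.0, from 19.8 in DUSP10 to 45.5 in DUSP16, beside 38.5 for the 8 members with a strand, and 1 of 6, DUSP1, had a peak of 2 kb or wider. SPRY3, the remaining Sprouty gene, had 17.9 and only 2 peaks in its window. The 6 other inhibitors of RAS and ERK signalling with a strand had a median of 10.4, and 3 of them reached fold 10. Among them RASA1, a GTPase-activating protein of RAS, had 76.0, above all members.

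Of the 12 ERK-responsive genes only 6 had a listed strand. These had a median 5′ fold of 24.8, all 6 reached fold 10, and 4 had a peak of 2 kb or wider. The immediate-early gene EGR1 had 52.3, while the PEA3 gene ETV1 had 10.1. At the stronger of both gene ends FOSL1, a subunit of AP-1, had 47.3 and the PEA3 gene ETV5 had 5.58. At ETV4 itself the value at the stronger end was 46.8, but the highest pileup in its window, 7664 fragments, was the highest of all peaks. The control level of that peak, 411.8, was also the highest of all peaks, and its fold enrichment was 18.6. Plasmid DNA and the chromosomal gene cannot be told apart there. In peaks per 100 kb these lists had 5.21 for the other phosphatases, 2.30 for the other inhibitors and 7.16 for the ERK-responsive genes, beside 7.59 for the members. Cyclin D1 (CCND1) had a peak of 125.2 away from both of its ends, beside 144.5 for the DUSP7 peak.

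**Figure D4:**
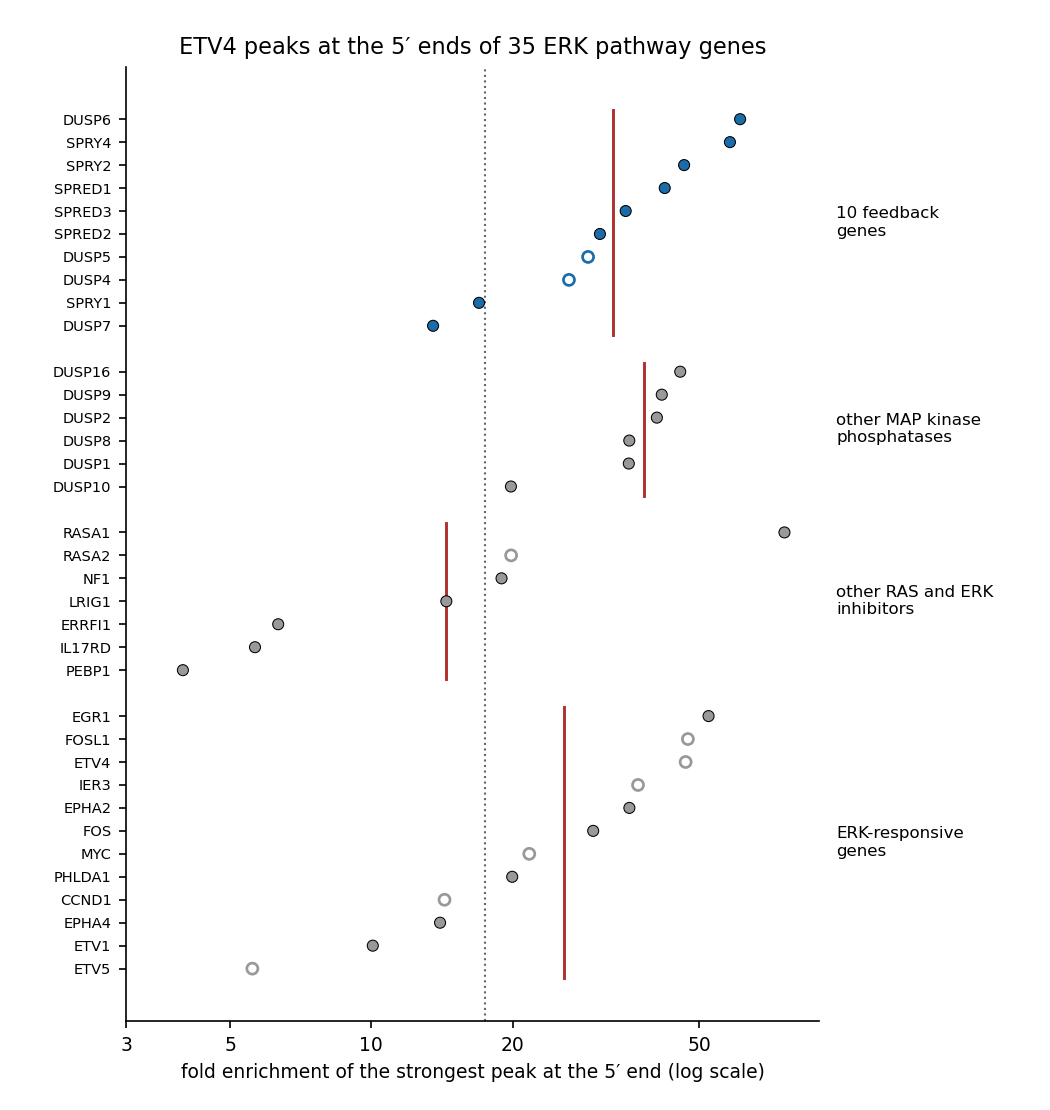
Fold enrichment of the strongest peak at the 5′ end, on a log scale, of the 10 members (blue) and of 25 other genes of the pathway (grey). Open circles are genes with no listed strand, drawn at the stronger of both gene ends, and red lines are the median over all genes of a group, with the median of 9716 genes, 17.5, as a dotted line. SPRY3, with 17.9, is not drawn. The members range from 13.5 to 61.1 and overlap every other group.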

How the data were processed

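The data were 1 anti-Flag ChIP-seq library and 1 input library of A549 cells. Groups came from the sample labels. The submitters' processing notes name Bowtie2 2.4.1, SAMtools, MACS2 2.2.7.1 and deepTools 3.5.0, with hg38/GRCh38. The authors deposited 1 peak list from the 1 immunoprecipitate, with nothing pooled. Its deposited values are a fold over the input (a ratio) and the summit's −log10 p-value and −log10 q-value. A score for display, also made by the authors, was not used. The lowest deposited −log10 q was 1.30. The number of reads and the handling of duplicates were not given in the sources used here. The signal of the input library was not analysed here.

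Peaks were assigned to RefSeq gene spans on GRCh38, with 1-based positions. Gene direction and sequences came from the RefSeq promoter table, and exons and introns were not used. Pileup and control level were solved from fold and −log10 p with a pseudocount of 1. All solved pileups were whole within 0.01. On 20000 simulated peaks 100% were recovered, and 200 simulated windows matched a direct search. The median pileup of 26 fragments sets the precision of a single peak. With 1 library, no test between groups was made, and counts are set beside those of all protein-coding genes.

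Named genes were the 10 members, 4 lists of pathway genes and any gene nearer to a member's peak, and genes over a summit were named where they bear on a peak. The members and lists were chosen with earlier results of these data known. Alternatives covered other distances (5, 10 and 50 kb), stricter thresholds on fold and q, other fold limits, placement by summit, other 5′ windows and nearest-gene assignment, and listed transcript starts and fold 20 at the 5′ end were added after the data had been seen. Scripts ran in Python 3.11.15 with scipy 1.17.1, pandas 2.3.3 and numpy 2.4.6, and figures were drawn with matplotlib 3.10.9.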

Additional observations from a re-analysis of the deposited data

How the results depend on the processing

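Of 43 alternative values, 40 stayed within the limit of 1.5 times the count or, for the median fold enrichment of the member peaks, within its interval of 9.46 to 18.1. The others were counts that follow from the narrower choice itself. Within 5 kb of the gene span there were 35 peaks in place of 54. With only peaks of fold enrichment over 10 there were 33 peaks and 4.64 per 100 kb in place of 7.59. Many of the 40 values were counts of members at or near 10 of 10, for which the limit was hard to pass. Placement by summit returned the same number of peaks, 54. The tally therefore says little about stability. All 10 members kept a peak under each distance and peak threshold that was run. At the 5′ end, placing peaks by their summit left 9 of 10 members, without DUSP6, and a fold over 20 left 8. Within 20 kb, a fold limit of 20 left 9, without SPRY1. No paired analysis was possible because the series held 1 immunoprecipitate with no replicate. The Poisson intervals cover counting error only. The spread between immunoprecipitates, the level of Flag-ETV4 relative to the cells' own ETV4 and the effect of binding on expression were not measured here. The control level has a floor of 1.28, so a lower input at peaks on that floor would not enter their fold.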
